A study of Homo sapiens with 24 samples.

Results

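Histone H3 trimethylated at lysine 4 (H3K4me3), the mark found around the start sites of active and poised genes, was examined at the promoters of 8 transcription factor genes: HNF4A, ONECUT1, ONECUT2, NEUROG3, INSM1, PAX4, MNX1 and GLIS3. These 8 genes were picked by name out of 19702 protein-coding genes, as members of the hepatocyte nuclear factor and ONECUT network and as regulators of pancreatic endocrine progenitors. For each gene, every deposited H3K4me3 region that overlapped 2 kb either side of a GENCODE protein-coding transcription start was listed, which gave 15 of the 97545 regions. Where a gene had several, the one with the largest mean was its main region.

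The cells were EndoC-βH3, an established human beta cell line derived from fetal pancreas and labelled WT. The line was immortalized with hTERT and SV40 large T antigen, which can be excised by a tamoxifen-activated Cre recombinase. The 4 non-senescent samples kept the immortalizing transgenes, and the 4 senescent samples had received 4-hydroxytamoxifen for 3 weeks, so that excision, drug and senescence came together. Each sample held 500000 cells, and nothing in the labels says whether the 4 replicates of a state were separate cultures. Chromatin from all samples was barcoded, pooled and split between antibodies (MINT-ChIP), and 16 samples made with antibodies to H3K27me3 and H3K9me3 were not analysed here.

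All values below are the authors' mean of a region's normalized count over the H3K4me3 samples of both states. The table used here gives no value per sample, so that these means carry no error, the depth of each sample is unknown, and the means of 2 genes could not be tested against each other. The authors' own comparison of the 2 states, held in the same table, was not used, and no difference between the states is given. Orders of values are therefore descriptions of these means, and neighbours in an order cannot be said to differ. A mean count grows with the width of its region, so that values of different genes are also given as the count per kb of region, and levels are compared on that scale.

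Pancreatic endocrine cells arise from epithelial progenitors that transiently switch on the basic helix-loop-helix factor NEUROG3. ONECUT1, also known as HNF6, acts upstream of NEUROG3, whereas INSM1 and PAX4 act downstream of it, and MNX1 and GLIS3 are used both in the embryonic pancreas and in mature beta cells. HNF4A is a nuclear receptor of liver, gut and pancreas with a proximal promoter, P1, and an upstream promoter, P2, the second of which is the main one in beta cells. Mutations in HNF4A cause a dominant form of monogenic diabetes, and recessive mutations in GLIS3 or MNX1 cause neonatal diabetes.

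The sequences in front of 6 start sites are shown because the amount or the position of H3K4me3 differed among them. The sites are the 2 promoters of HNF4A, the paralogs ONECUT1 and ONECUT2, and NEUROG3 and MNX1, whose annotated main starts lay outside every region. Each sequence is the 250 bases before the start in RefSeq (GRCh38.p14), 5′ to 3′ on the strand of the gene. Capitals mark every match on either strand to the letters listed after the sequences.
HNF4A P2, chr20:44355449-44355698, plus strand: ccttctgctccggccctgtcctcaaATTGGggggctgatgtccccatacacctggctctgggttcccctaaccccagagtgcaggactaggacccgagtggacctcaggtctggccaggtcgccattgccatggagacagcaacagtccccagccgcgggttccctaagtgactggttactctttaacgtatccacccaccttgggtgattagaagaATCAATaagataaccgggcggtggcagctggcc
HNF4A P1, chr20:44400989-44401238, plus strand: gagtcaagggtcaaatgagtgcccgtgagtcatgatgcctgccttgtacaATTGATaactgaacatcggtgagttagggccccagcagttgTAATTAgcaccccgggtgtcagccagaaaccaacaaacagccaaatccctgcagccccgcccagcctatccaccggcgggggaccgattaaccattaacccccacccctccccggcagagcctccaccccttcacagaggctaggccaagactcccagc
ONECUT1, chr15:52790337-52790586, minus strand: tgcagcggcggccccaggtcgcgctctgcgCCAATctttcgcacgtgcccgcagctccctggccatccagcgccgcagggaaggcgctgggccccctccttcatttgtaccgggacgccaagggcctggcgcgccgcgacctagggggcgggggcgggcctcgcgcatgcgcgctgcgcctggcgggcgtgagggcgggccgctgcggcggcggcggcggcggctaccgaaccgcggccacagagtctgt
ONECUT2, chr18:57435124-57435373, plus strand: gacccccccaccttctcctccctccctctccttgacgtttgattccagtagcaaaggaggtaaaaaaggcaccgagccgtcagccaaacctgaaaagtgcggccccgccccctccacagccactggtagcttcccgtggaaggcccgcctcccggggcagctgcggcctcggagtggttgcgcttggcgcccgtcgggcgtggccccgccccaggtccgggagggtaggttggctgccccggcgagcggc
NEUROG3, chr10:69573423-69573672, minus strand: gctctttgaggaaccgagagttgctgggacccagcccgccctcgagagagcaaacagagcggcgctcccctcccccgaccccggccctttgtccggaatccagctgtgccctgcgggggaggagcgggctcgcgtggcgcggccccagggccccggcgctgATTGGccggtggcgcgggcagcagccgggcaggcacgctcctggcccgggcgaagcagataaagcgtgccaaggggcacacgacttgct
MNX1, chr7:157010664-157010913, minus strand: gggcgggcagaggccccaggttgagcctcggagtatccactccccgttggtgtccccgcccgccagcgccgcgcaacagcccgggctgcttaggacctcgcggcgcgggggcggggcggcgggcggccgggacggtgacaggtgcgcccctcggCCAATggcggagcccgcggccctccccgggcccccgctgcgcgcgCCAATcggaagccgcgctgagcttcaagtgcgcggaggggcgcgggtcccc

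The letters searched were the TATA box TATAAA, the CCAAT box CCAAT, the ONECUT core ATCAAT, the homeodomain site TAATTA and the E-box CAGATG of proneural factors. These were found in 9.005%, 32.7%, 4.24%, 3.15% and 10.2%, respectively, of 22199 RefSeq promoters of coding genes cut to the same length. The P2 sequence of HNF4A held an ONECUT core at −33 to −28 and a CCAAT box at −225 to −221, counted back from the start. The P1 sequence held an ONECUT core at −200 to −195 and a homeodomain site at −159 to −154. ONECUT1 and NEUROG3 each had 1 CCAAT box, MNX1 had 2, and ONECUT2 had no match. The number of CpG dinucleotides also varied, around a median of 16 over all promoters searched. There were 8 in each HNF4A promoter, 20 in ONECUT2, 25 in NEUROG3, 36 in MNX1 and 37 in ONECUT1. Of the 8 genes, all but INSM1 had a RefSeq promoter in the table searched, with 11 promoters in all. GLIS3 held a TATA box at −104 to −99 of its first promoter and PAX4 a CCAAT box at −106 to −102. A match is a match of letters and does not show that a factor binds there.

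All 8 genes had at least 1 H3K4me3 region at a promoter, as did 14586 of the 19702 protein-coding genes (74.03%). The means spanned a wide range, from 3.21 for NEUROG3 to 233.4 for HNF4A. HNF4A and INSM1 lay near the top of all genes, with percentiles of 98.3 and 97.7 by count, MNX1, PAX4, GLIS3 and ONECUT2 followed at 80.8, 70.8, 68.4 and 66.0, and ONECUT1 and NEUROG3 lay near the bottom at 5.64 and 3.86. By count per kb the percentiles were 98.4 for INSM1, 93.8 for HNF4A, 51.9 for PAX4, 49.0 for GLIS3, 46.0 for ONECUT2, 38.9 for MNX1, 6.34 for NEUROG3 and 3.78 for ONECUT1, so that HNF4A and INSM1 changed places, as did NEUROG3 and ONECUT1, and MNX1 came last of the middle 4. The median over the 8 genes was the 69.6 percentile by count and the 47.5 percentile by count per kb. Thus 6 of the 8 exceeded the median count of all main regions (49.3), but only 3 exceeded the median count per kb (19.0): INSM1 (51.6), HNF4A (38.8) and PAX4 (19.5). The main regions of INSM1, PAX4 and ONECUT2 held no coding start. Their regions nearest a start had counts of 17.3, 8.21 and 40.5, and 8.68, 4.48 and 22.1 per kb. Of these, only ONECUT2 exceeded a median, and only per kb.

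Most of the main regions were wide. Of the 8, 6 were wider than the upper quartile over all genes (3573 bp), from 3999 bp at ONECUT2 to 6257 bp at MNX1, and the other 2 were the narrow regions of ONECUT1 (806 bp) and NEUROG3 (500 bp). A width of exactly 500 bp was the commonest in the table, shared by 36231 regions. No main region reached the start site of another protein-coding gene.

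**Figure D1:**
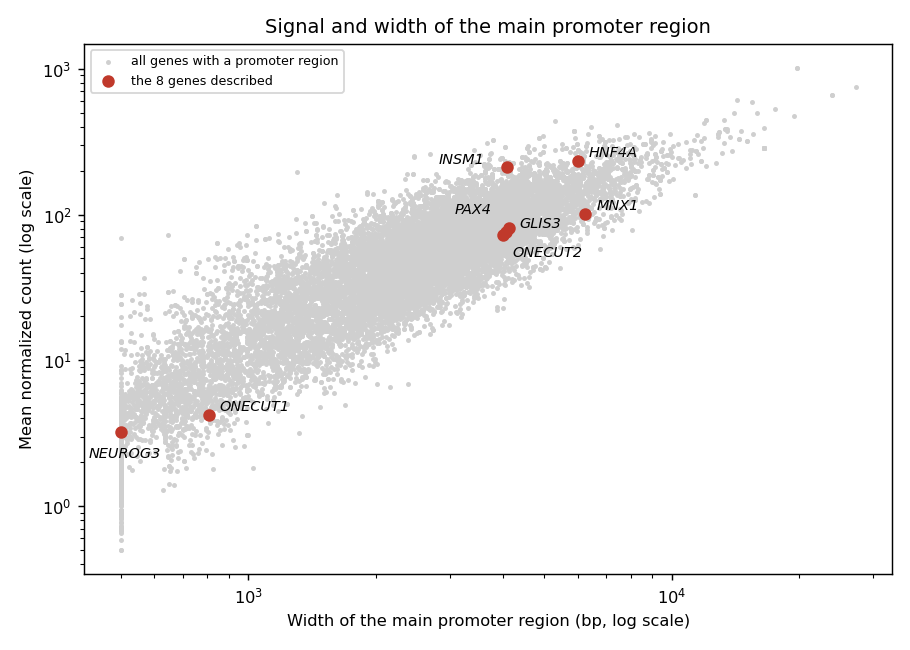
Mean normalized count of the main promoter region (vertical axis, log scale) against its width in bp (horizontal axis, log scale); grey points are the 14586 protein-coding genes with a promoter region and red points the 8 genes described. NEUROG3 and ONECUT1 sit at the lower left with counts of 3.21 and 4.21, and HNF4A and INSM1 at the upper edge with 233.4 and 211.4.

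HNF4A (ENSG00000101076.20, chr20:44355699-44432845, plus strand) carried the highest mean count of the 8. Its main region, chr20:44354418-44360427, had a mean normalized count of 233.4 over 6009 bp, or 38.8 per kb. The region covered all 3 coding starts of P2 and ran from −1281 to 4728 bp relative to the first of them, with 76.1% of its length in intron. It also held the start of the long noncoding RNA R3HDML-AS1, whose share of the mark cannot be told apart from that of HNF4A. Its CpG ratio (observed over expected) was 0.28, below the lower quartile over all main regions (0.48), and its GC content was 47.5%.

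The P1 promoter of HNF4A, 45540 bp downstream, was marked as well, at a lower level. The region chr20:44400704-44403421 covered all 6 coding starts of P1 and had a mean normalized count of 40.6 over 2717 bp, or 15.0 per kb. The P2 region thus had 5.74 times the count of the P1 region and 2.60 times its count per kb. Set among the main regions of all genes, P1 would stand at the 42.7 percentile by count and P2 at 98.3. Both promoter regions were low in CpG (ratios 0.28 and 0.30). The 5 further regions in the gene or within 20 kb of it had counts between 1.26 and 16.6, and from 2.52 to 18.9 per kb. The highest of these per kb, at chr20:44370373-44371236, thus exceeded P1 on that scale (18.9 against 15.0), though not by count.

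GLIS3 (ENSG00000107249.24, chr9:3824127-4348392, minus strand), a zinc finger activator of the insulin gene, had 3 groups of coding starts, each with a region of its own. The first group in the order of transcription, 4 starts between 4300068 and 4298496, lay inside the main region chr9:4296570-4300638, with a mean normalized count of 76.3 over 4068 bp, or 18.7 per kb. The start of the noncoding GLIS3-AS2 lay in the same region. The second group, 3 starts at 4152183 to 4152147, lay in chr9:4151392-4152234 with a count of 5.85 over 842 bp (6.94 per kb). The third group, with starts at 4147644 and 4145193, had chr9:4147038-4148633 at 20.9 over 1595 bp (13.1 per kb), which covered only the first of those 2 starts.

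The first GLIS3 promoter therefore had 13.0 times the count of the second and 3.66 times that of the third, and 2.70 and 1.43 times their count per kb. The third exceeded the second 3.57-fold by count and 1.88-fold per kb, although only 6954 bp separate these 2 groups of starts. The 3 promoters also differed in base composition: the first had a CpG ratio of 0.78 and a GC content of 56.7%, the second 0.12 and 40.5%, and the third 0.15 and 41.4%. Along the body of this long gene and within 20 kb of it there were 27 further regions, with counts from 1.22 to 27.8 and a median of 5.72, close to the median of all regions (4.40). The strongest of these, chr9:3975571-3978425, reached 27.8 (9.73 per kb), above the second and the third promoter by count but below the third per kb.

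**Figure D2:**
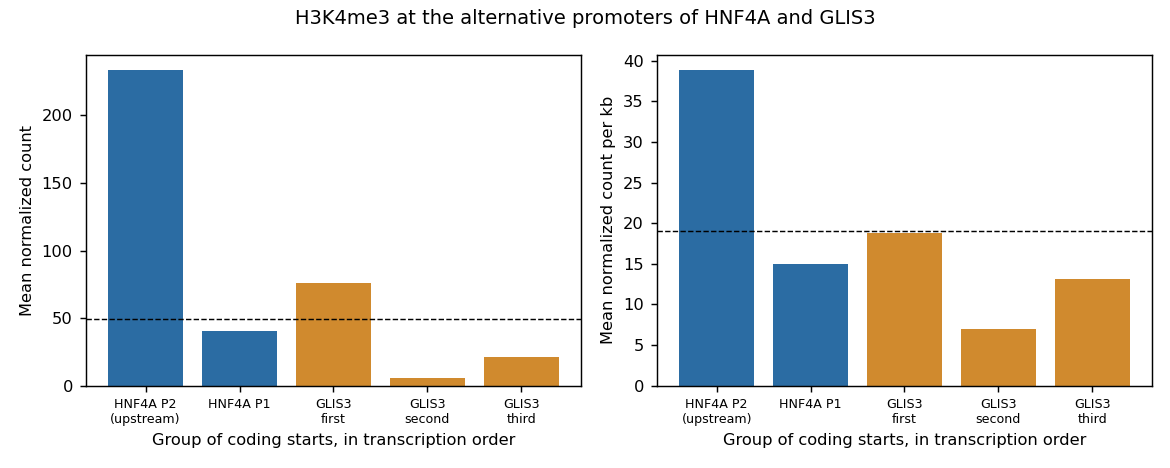
Mean normalized count (left) and count per kb (right) of the region at each group of coding starts of HNF4A (blue) and GLIS3 (orange), in the order of transcription; dashed lines are the medians over the main regions of all genes, 49.3 and 19.0. P2 of HNF4A stands above both lines, and the first GLIS3 promoter above the line by count and just below it per kb; single means are plotted, with no error bars.

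The paralogs ONECUT1 and ONECUT2, cut-homeodomain factors of liver and pancreas with related DNA binding, differed in the amount of mark. ONECUT1 (ENSG00000169856.9, chr15:52755053-52791078, minus strand) had a single promoter region, chr15:52789733-52790539, with a mean normalized count of 4.21 over 806 bp, or 5.22 per kb. The region held the annotated start at 52790336 and lay 74.8% in exon, and its count was below the median of all regions in the genome (4.40). Its sequence was nevertheless of the CpG island kind, with a GC content of 69.2% (percentile 99.0) and a CpG ratio of 0.91. Only 3 further regions lay in the gene or within 20 kb, with counts of 1.84 to 7.75.

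ONECUT2 (ENSG00000119547.6, chr18:57435374-57491298, plus strand) had a promoter region on each side of its start. The upstream one, chr18:57433569-57435403, ended 29 bp past the start and had a count of 40.5 over 1834 bp (22.1 per kb). The downstream one, chr18:57435908-57439907, began 534 bp past the start and was the main region, with 72.0 over 3999 bp (18.0 per kb). The downstream region was higher by count and the upstream region by count per kb, and 25.9% of the downstream region was coding exon. Per kb, the main region of ONECUT2 had 3.44 times the value of that of ONECUT1, and by count 17.1 times. A further region in the first part of the gene, chr18:57443562-57447289, with a count of 43.2 (11.6 per kb), lay over the start of a noncoding transcript of the gene, 8188 bp from the coding start.

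Among the factors of endocrine progenitors, the main regions of NEUROG3 and INSM1 stood at opposite ends. NEUROG3 (ENSG00000122859.5, chr10:69571698-69573422, minus strand), which commits progenitors to the endocrine fate and is then switched off, had a single region of 500 bp, chr10:69572682-69573182, with a mean normalized count of 3.21 (6.42 per kb). This region began 240 bp past the annotated start, lay 72.2% in coding exon and held the start of the long noncoding gene ENSG00000236154. No region covered the start itself, and the next region upstream began 30924 bp beyond this one, at 69604106. NEUROG3 was the only gene of the 8 with no other region within 20 kb.

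INSM1 (ENSG00000173404.5, chr20:20368104-20370949, plus strand), a zinc finger repressor that stays on in mature endocrine cells, had the highest count per kb of the 8 genes. Its main region, chr20:20369638-20373733, had a mean normalized count of 211.4 over 4095 bp, or 51.6 per kb, at the 98.4 percentile per kb. The region began 1534 bp past the start, and 32.0% of it lay in the single exon of the gene, the rest beyond the annotated end. The upstream region, chr20:20366027-20368018, ended 86 bp in front of the start and had a count of only 17.3 (8.68 per kb). Between the 2 lay 1620 bp that held the start and no region, with a GC content of 76.9% and a CpG ratio of 1.00. Per kb, the main region of INSM1 had 8.04 times the value of that of NEUROG3 and 1.33 times that of HNF4A. These ratios rest on a region over 1 kb from the start: with a window of 1 kb, or with the region nearest the start, the value of INSM1 was that of the upstream region, 17.3 (8.68 per kb), next to 6.42 per kb at NEUROG3.

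PAX4 (ENSG00000106331.19, chr7:127610292-127618142, minus strand), a paired-homeodomain repressor that favours the beta over the alpha cell fate, had its mark in front of the gene. The region over the annotated start at 127618142, chr7:127616808-127618641, had a mean normalized count of 8.21 over 1833 bp (4.48 per kb, percentile 2.60). The main region, chr7:127618969-127623093, lay wholly upstream, from −4951 to −827 bp relative to the start, with 80.5 over 4124 bp (19.5 per kb). No annotated transcript of any gene started inside this upstream region. Both regions were low in CpG, with ratios of 0.09 over the start and 0.29 upstream. Within 20 kb of the gene there were 3 further regions, of which the strongest, with a count of 75.3, lay over the starts of the neighbouring genes ARF5 and FSCN3.

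MNX1 (ENSG00000130675.15, chr7:156994051-157010663, minus strand), a homeodomain factor of the pancreatic bud and of beta cells, had the widest main region. This region, chr7:157003577-157009834, had a mean normalized count of 101.5 over 6257 bp, or 16.2 per kb, and held 4 of the 5 coding starts and the start of the noncoding MNX1-AS2. The annotated main start at 157010663 was not among them. It lay in 1159 bp without a region, with a GC content of 78.2% and a CpG ratio of 1.03. On the upstream side of that gap, chr7:157010993-157012623 had a count of 36.0 over 1630 bp (22.1 per kb). As at ONECUT2, the downstream region was higher by count and the upstream region by count per kb. A further 7 regions in the gene or within 20 kb had counts from 4.28 to 32.4.

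**Figure D3:**
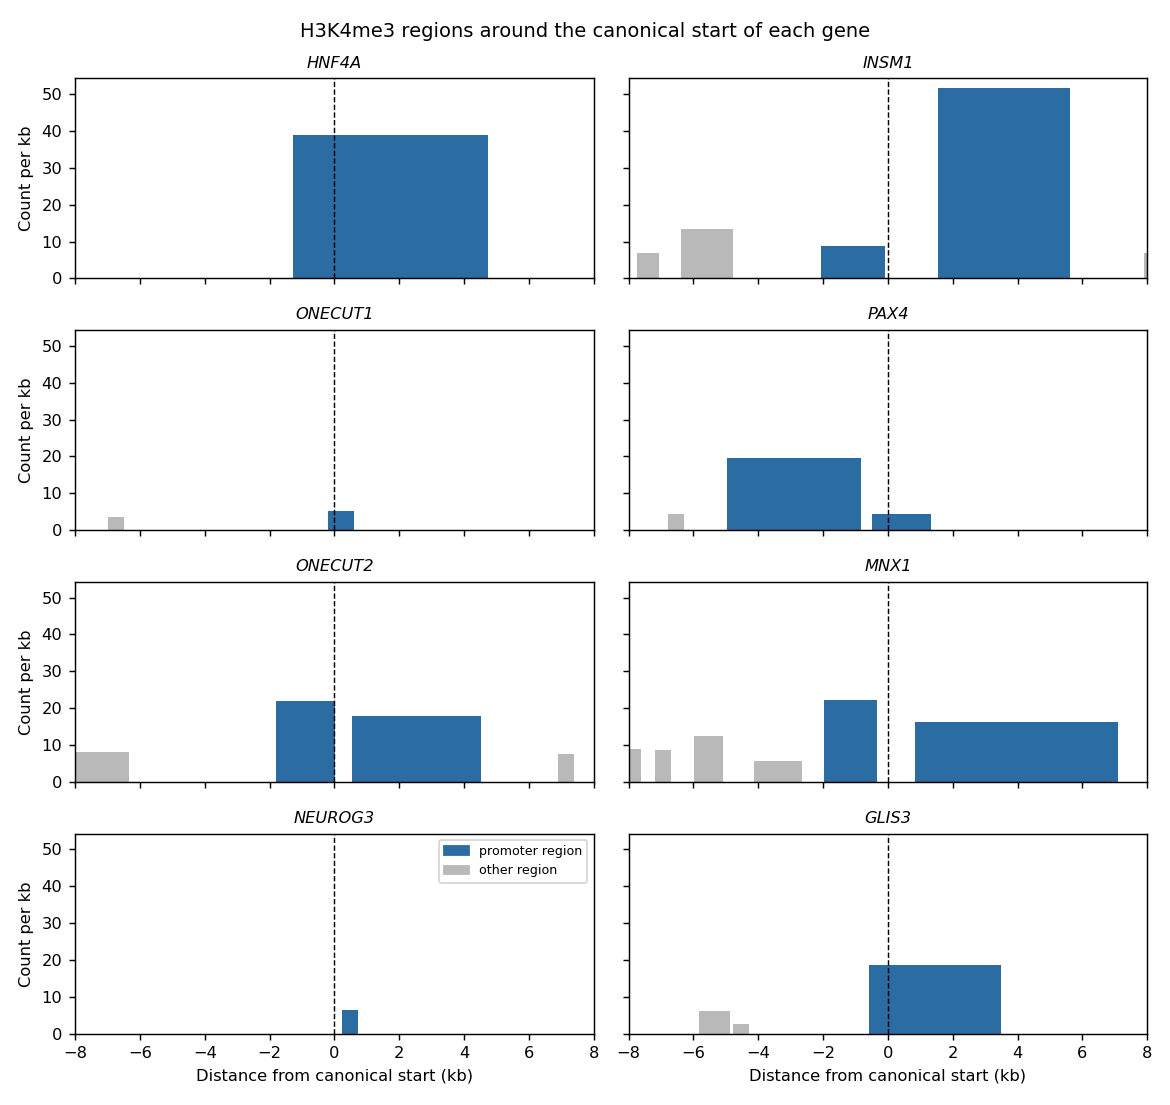
H3K4me3 regions within 8 kb of the canonical start of each of the 8 genes (dashed line at 0 kb; distances in the direction of transcription); the height of a block is its mean normalized count per kb and its width the width of the region, with promoter regions in blue and other regions in grey. The start lies inside a region at HNF4A, ONECUT1, ONECUT2, PAX4 and GLIS3, and outside every region at NEUROG3, INSM1 and MNX1.

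Across the 8 genes, the canonical start (that of the main transcript in GENCODE) lay inside a region in 5, and inside the main region in 3, HNF4A, ONECUT1 and GLIS3. Over all genes with a promoter region these shares were 71.8% and 66.2%. Of the 8 genes, 6 had 2 or more promoter regions, compared with 5416 genes, or 37.1%, overall. This number depends on how many coding starts a gene has, of which HNF4A and GLIS3 had 9 each. With the outermost start only, the 15 promoter regions of the 8 genes became 12. For INSM1 and MNX1 the start lay in a gap flanked by marked regions. The 1 kb centred on the start had a GC content of 76.0% at INSM1 and 74.6% at MNX1, the 2 highest of the 8 genes, whereas the other 6 lay between 51.2% (PAX4) and 70.2% (ONECUT2), with NEUROG3 at 63.3%.

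Among the 7293 genes whose main region had at least the median count, 89.2% of canonical starts lay inside a region. The share was 64.2% (111 of 173) at a GC content under 45% in the 1 kb around the start, 95.8% (1088 of 1136) at 45 to 55%, 97.9% (3443 of 3517) at 55 to 65%, 83.2% (1787 of 2147) at 65 to 74% and 24.1% (77 of 320) at 74% and over. It was therefore lower at both ends of the GC range. The limit of 74% was set after the values had been seen. The part of base composition in the gaps at INSM1 and MNX1 was not tested. A missing region at such a start says only that none was listed there, not that the mark was absent from the cells.

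**Figure D4:**
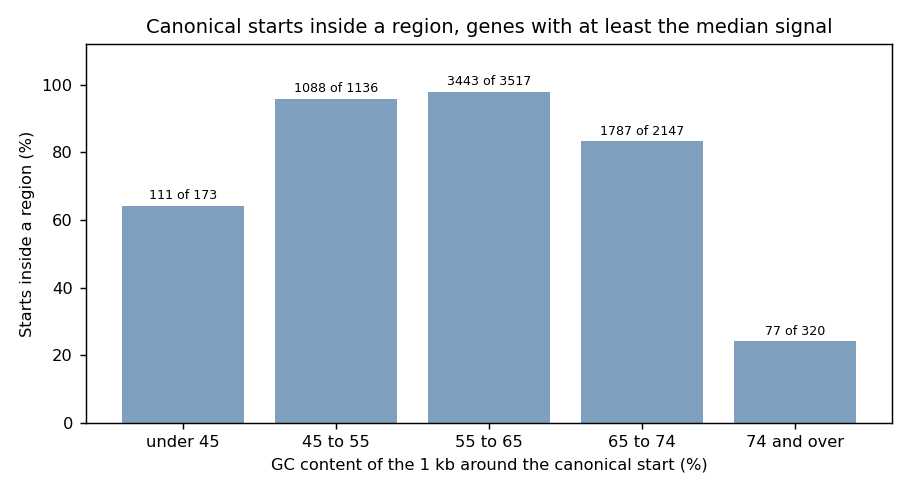
Percent of canonical starts that lie inside an H3K4me3 region (vertical axis), by GC content of the 1 kb around the start (horizontal axis), over the 7293 genes whose main region has at least the median count; the numbers above the bars give the starts inside a region and all starts of the class. The share is highest at 55 to 65% GC (97.9%) and lower on both sides, at 64.2% under 45% GC and at 24.1% at 74% and over, the class that holds INSM1 and MNX1.

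Relatives of HNF4A and of the ONECUT, GLIS, INSM and NEUROG genes were listed for comparison. The list also held the forkhead genes FOXA1, FOXA2 and FOXA3, which are of another family, and no relative of PAX4 or MNX1. Of the 10 genes in this list, 9 had a promoter region, the exception being ONECUT3, against 74.03% of all protein-coding genes. Of the 9, 4 exceeded the median count of all genes and 3 the median per kb, and their median percentile by count was 38.0. FOXA1 (2.98) and GLIS1 (4.28) lay below the median count of all regions (4.40). FOXA2, a forkhead pioneer factor of endoderm, had a count of 223.0 over 11111 bp (20.1 per kb). The paralog HNF4G had 57.7 (15.2 per kb), INSM2 51.5 (13.2 per kb) and GLIS2 35.4 (19.6 per kb). HNF4A and INSM1 were higher than these paralogs by count and per kb, while GLIS3 exceeded GLIS2 by count (76.3 against 35.4) but not per kb (18.7 against 19.6). For INSM1 this rests on a region over 1 kb from the start. The INSM1 region nearest the start, at 17.3 (8.68 per kb), was lower than the main region of INSM2 on both scales. NEUROG3, at 3.21 (6.42 per kb), was lower than NEUROG2, at 26.2 (18.6 per kb), on both scales, and lower than NEUROG1, at 8.57 (5.56 per kb), by count only.

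Other transcription factors of the pancreatic and endocrine lineage gave the range in which the 8 genes lay. Of 20 such factors, 19 had a promoter region (MAFA had none), against 74.03% of all protein-coding genes. Their counts ran from 1.44 at PTF1A, a factor of acinar cells and early progenitors, to 664.6 at PAX6, which all islet cells use. Their median was 123.3 by count and 22.5 per kb, against 78.4 and 18.4 over the 8 genes. Of the 19, 13 exceeded the median count of all genes and 10 the median per kb.

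Markers of cell identity were used to check the label of the line. Of 9 beta cell markers, 8 had a promoter region, with counts from 6.94 at IAPP to 473.4 at SLC30A8, the zinc transporter of insulin granules, and a median of 101.8. Of these 8, 5 exceeded the median of all genes by count and 4 per kb. The lists overlapped: PDX1, NKX6-1 and MAFA were beta cell markers and also among the 20 factors above. PTF1A was among those factors and also among the markers of other cell types below. The insulin gene INS had 24.7 (14.0 per kb). MAFA, a late beta cell factor, had no region listed, which does not show that the mark was absent. The paper reported higher MAFA mRNA in the senescent cells than in the non-senescent cells. Of 12 markers of other cell types, 9 had a region, close to the share of all protein-coding genes (74.03%). The number without a region therefore tells nothing about cell type. Counts of the 9 ran from 1.12 to 24.1 with a median of 4.37, and none exceeded the median of all genes by count or per kb. PPY, PTPRC and CD3E, which mark pancreatic polypeptide cells, leukocytes and T cells, had no region. On the scale of count per kb the 9 other-cell markers with a region ranged from 2.24 to 15.3. The upper end, at PECAM1, stood only at the 35.6 percentile of all genes with a promoter region. Most genes therefore lay above this range, and a place above it does not set a gene apart. The beta cell markers INS (14.0), ABCC8 (11.1), G6PC2 (8.81) and IAPP (7.56) lay within that range, and the other 4 with a region lay above it. ONECUT1 (5.22 per kb) and NEUROG3 (6.42 per kb) lay within the range of the other-cell markers. The main regions of the other 6 genes, at 16.2 per kb and above, lay above that range, as did those of most genes. The main regions of INSM1, PAX4 and ONECUT2 held no coding start. The regions nearest their starts had 8.68, 4.48 and 22.1 per kb, so that by this choice INSM1 and PAX4 would fall within the range.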

How the data were processed

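H3K4me3 was profiled by MINT-ChIP in EndoC-βH3 cells, and the deposited table lists regions with values pooled over all H3K4me3 samples. Alignment by the authors was to hg38 using Bowtie2 and samtools, H3K4me3 peaks came from HOMER findPeaks, and DESeq2 served to compare the states. How peaks were merged, reads counted and duplicates treated is not given in the sources used here. The signal used is the authors' deposited mean of DESeq2-normalized counts per region. The other 5 columns hold the authors' own comparison of the 2 states (fold change, its error, score and p-values) and were not used, so that no test was made.

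Regions were joined to coding starts of GENCODE release 44 within 2 kb. Coordinates are printed as deposited, and whether their starts count from 0 or 1 is not stated. Percentiles are over the main regions of 14586 genes. Distances are in the direction of transcription. Alternative promoters were groups of starts over 4 kb apart. GC content and CpG ratio came from hg38. Motifs were matched exactly on both strands of the 250 bases before RefSeq starts. The 8 genes, the lists of other genes and the markers were chosen with earlier results of these data known. Of the lists, most genes are given by counts and ranges, and a few are not reported here. By rule, values were given for HNF4G, FOXA2, GLIS2, INSM2 and ONECUT3; every other gene named outside the 8 was chosen after its values were seen. The join was tested on simulated data. Python 3.11.15, numpy 2.4.6, pandas 2.3.3 and matplotlib 3.10.9 were used. Settings varied were the window, the set of starts, a floor on the count, the choice of main region and the scale.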

Additional observations from a re-analysis of the deposited data

How the results depend on the processing

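The median percentile of the 8 genes by count, 69.6, was 66.6 with a window of 1 kb, 74.3 over regions with at least the median count, 35.2 with the region nearest a start in place of the highest, and 47.5 by count per kb. It stayed at 69.6 with every transcript start of the gene, a setting chosen after seeing the data. The fall to 35.2 came from INSM1, PAX4 and ONECUT2, whose nearest regions had counts of 17.3, 8.21 and 40.5 in place of 211.4, 80.5 and 72.0. With the 1 kb window INSM1 alone moved, to 17.3. The 15 promoter regions became 14 with that window, 12 with the outermost start and 19 with every transcript start. A floor at the median count of all regions removed ONECUT1 and NEUROG3 and left 6 genes. HNF4A and GLIS3 had 5 promoter regions together with either window and 6 with every transcript start. No paired analysis was possible because the table holds 1 mean over all samples and no value per replicate. For the same reason no replicate could be left out. Depth limits the low values most: at ONECUT1 and NEUROG3 the mean is a few normalized counts per sample.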
